A study of Trichechus manatus latirostris with 11 samples.

Results

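Interferon signalling and antiviral genes were examined in buffy coat RNA of Florida manatees (Trichechus manatus latirostris). A list of 47 genes was compared with the deposited table by the symbol that the TriManLat1.0 RefSeq records give to each row, matched without the record's version number, and 22 of the 47 genes had a row. The other 25 are not analysed here: the receptor chains IFNAR1, IFNAR2, IFNGR1 and IFNGR2, the factor IRF9, the sensors and adaptors DDX58, MAVS and TMEM173, ISG15 with PARP9, PARP14 and TRIM25, and the effectors IFIT1, IFIT2, MX1, MX2, OAS1, OASL, RSAD2, EIF2AK2, IFI35, IFI44, IFI44L, ZC3HAV1 and SP100. The 22 are part of 10080 rows with a symbol and of 15298 rows in all. The buffy coat is the layer of white blood cells between plasma and red cells after centrifugation. The red tide group held 4 adult manatees that were under treatment for red tide illness at Lowry Park Zoo (ZooTampa), some sampled on arrival and others after a week of care. Red tide blooms release brevetoxins, neurotoxins that act on voltage-gated sodium channels. The control group held 7 adults, of which 4 were sampled at Crystal River, 2 in Brevard County (Indian River Lagoon) and 1 at the zoo while recovering from pneumonia. RNA of both groups was depleted of ribosomal and globin RNA before sequencing. The groups also differed in sampling period, in place and, by the study's methods, possibly in how the cells were stored, and none of these can be told apart from red tide exposure.

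Interferons are secreted proteins that put cells into an antiviral state. Type I interferons bind IFNAR1 and IFNAR2, and the kinases JAK1 and TYK2 then activate STAT2, which acts with IRF9 on the promoters of interferon-stimulated genes. Interferon gamma, made by T and natural killer cells, signals through IFNGR1 and IFNGR2 and strongly induces IRF1. Upstream, the helicases DDX58 (RIG-I) and IFIH1 (MDA5) detect viral RNA and act through MAVS and the kinase TBK1 on IRF3 and IRF7. In blood, neutrophils, monocytes and lymphocytes all carry this system.

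The table gives mean normalized counts, in which the authors scaled the read counts of each library by a size factor. The columns do not name their groups. In every row, weights of 4 and 7 for the first and second mean gave the mean of all 11 libraries, to within a relative 3.3e-09. By these weights the 4-library mean would be that of red tide (4 animals) and the 7-library mean that of the controls (7 animals). The directions that the study gives for its genes run the other way, since genes it describes as higher in red tide, such as MMP9, CXCR1 and CXCR2, are those with the higher second mean in the table. Which mean stands for red tide is therefore not settled, every direction relative to red tide would turn with it, and the means are called by their numbers of libraries below. Whole reads of single libraries were recovered from a group mean wherever a single combination of reads gave it. This worked for the 4 libraries in 11 of the 22 genes and for all 11 libraries in 2, but the libraries recovered in this way cannot be linked to animals. Size factors, which stand for relative depth, were 1.56, 1.03, 0.62 and 0.372 in the 4-library group and 0.702 to 1.73 in the 7-library group. The 4 libraries were not alike over the 10144 rows with recovered reads: the highest of the 4 values came from the shallowest library, with size factor 0.372, in 34.4% of the rows, and from the deepest in 18.3%. Which total read number belongs to which library is unknown. Transcript lengths were not used, so levels are compared between groups and not between genes. A lower mean in such bulk RNA cannot be told apart from fewer cells of the type that makes the transcript.

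Most of these genes had the higher mean in the 7 libraries. This was so for 15 of the 22, where 43.6% of all rows were higher in the 7-library mean. The other 7 were higher in the 4-library mean, as were 56.4% of all rows. The 7-library mean was at least 2-fold higher for 7 genes, which were IRF2, IRF7, IFIH1, HERC5, HERC6, DTX3L and SAMHD1. They are 31.8% of the 22, against 10.4% of all rows. The 4-library mean was at least 2-fold higher for 4 genes, IRF1, IFIT5, ISG20 and DHX58, which are 18.2% of the 22, against 23.9% of all rows. ISG20 and DHX58 each lost this 2-fold difference when 1 of the 4 libraries was dropped, with log2 ratios of 0.79 without the library of size factor 0.62 and 0.88 without the shallowest. Among the 10225 rows with an overall mean of at least 10, which includes all 22 genes, these shares were 9.59% and 12.3%. Ratios are given as log2 of the 4-library mean divided by the 7-library mean. Their median was -0.44 for the 22 genes and 0.14 for all rows. Relative to that shift of 0.14, the 2-fold counts stayed at 7 and 4, and the median was -0.58. The 22 genes had a median overall mean of 105 normalized counts, against 34.3 for all rows. The shares of 43.6% and 56.4% and the median of 0.14 are not given for rows of a like level. The counts of the 22 genes describe group means and carry no test, since the spread of both groups was known for 2 of the genes only.

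**Figure D1:**
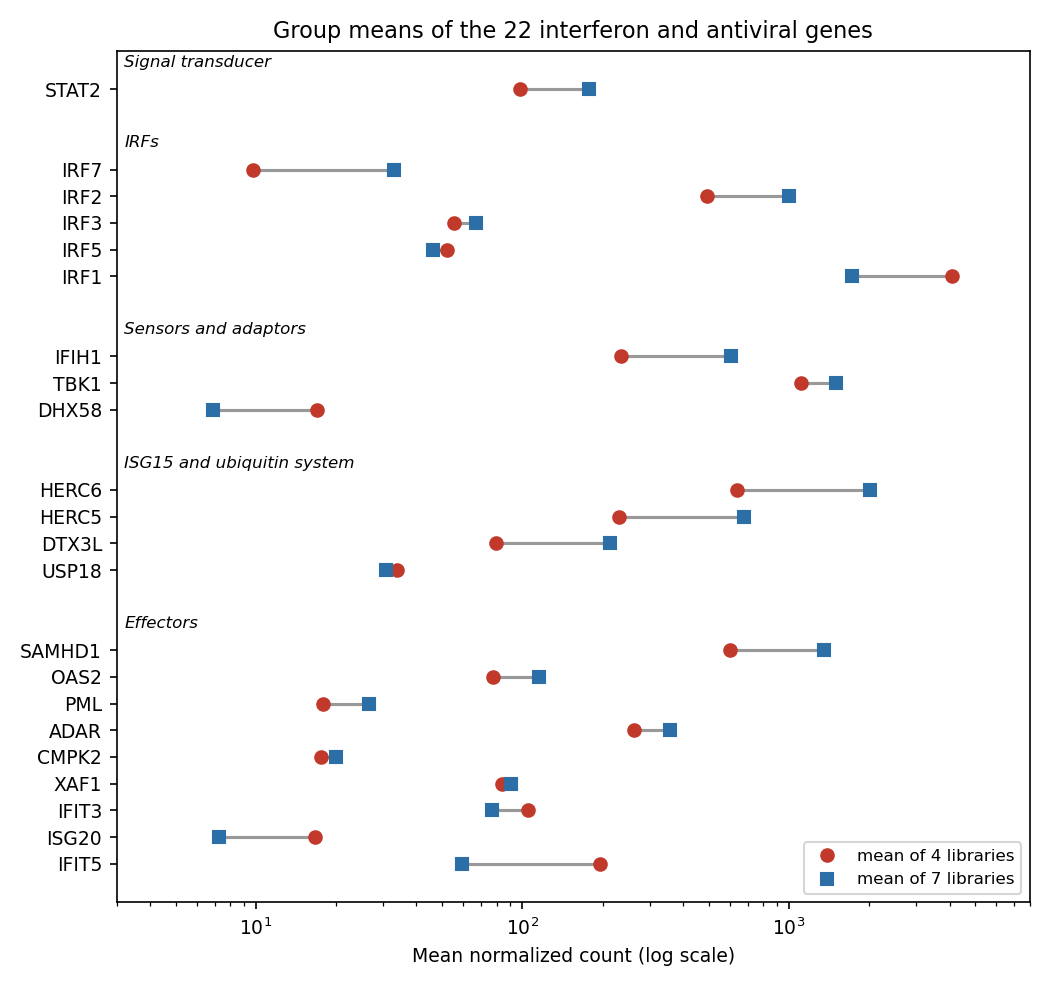
Mean normalized count (log scale) of each of the 22 genes in the 4 libraries (red circles) and the 7 libraries (blue squares), ordered by role; grey lines join the means of a gene. The blue square lies to the right for 15 genes, among them IRF7, HERC5, HERC6, IFIH1 and DTX3L, and to the left for 7, with the widest such gap at IFIT5.

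**Figure D2:**
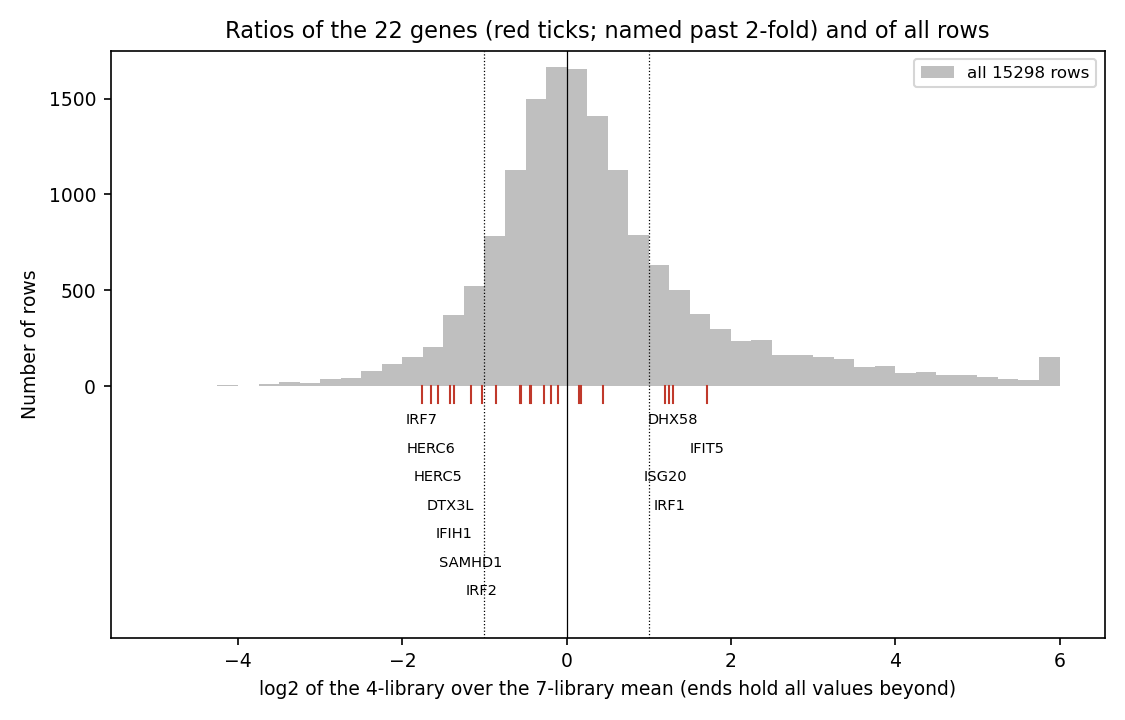
Number of rows by log2 ratio (4-library mean divided by 7-library mean) for all 15298 rows (grey), with a red tick for each of the 22 genes and names for those past 2-fold (dotted lines). The 22 ticks reach from -1.76 (IRF7) to 1.71 (IFIT5), while the rows as a whole have a long tail to the right.

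Of the receptors and their signal transducers, STAT2 alone had a matched row. STAT2 (XM_004379919.1), the transcription factor specific to type I and III interferon signalling, had means of 97.8 (4 libraries) and 177 (7 libraries) normalized counts, a log2 ratio of -0.86. A pair of read combinations gave its 4-library mean, so its libraries are not known singly. In either combination 3 of the 4 libraries lay below 177 and 1 above, at 276 or at 207. In either combination the 7-library mean therefore lay within the range of the 4 libraries.

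Interferon regulatory factors (IRFs) bind the promoters of interferons and of their target genes, and 5 of the 6 listed had a row. They did not share a direction. IRF1 (XM_004384742.1), an activator of genes induced by interferon gamma, was past 2-fold in favour of the 4 libraries, with means of 4085 over the 4 libraries and 1722 over the 7, a log2 ratio of 1.25. IRF2 (XM_004389669.1), which competes with IRF1 for the same sites and mostly represses, had the opposite ratio, with means of 490 and 1002 (log2 ratio -1.03). Both means were too high for reads of single libraries to be recovered, so neither ratio has a replicate check.

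IRF7 (XM_004389409.1), the factor that amplifies type I interferon production, had the lowest ratio of the 22 genes. Its values in the 4 libraries, in order of falling size factor, were 12.8, 10.7, 12.9 and 2.69 normalized counts, from 20, 11, 8 and 1 reads. Each of them lay far below the 7-library mean of 33.1. The 4-library mean was 9.78 ± 4.83 (SD, n = 4), so the 7-library mean was 3.38-fold higher. That gap was 4.82 SD of the 4 libraries, but the spread of the 7 libraries is unknown. All 4 libraries lay below the 7-library mean in 27.1% of the 4559 rows with such reads and an overall mean of at least 10. The ratio of IRF7 fell at percentile 3.2 of all rows. With 1 of the 4 libraries dropped at a time, the log2 ratio ran from -1.92 to -1.45.

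IRF3 and IRF5 showed no such gap. IRF3 (XM_004381642.1), which is activated by TBK1, had values of 73.8, 49.6, 54.8 and 43.0 in the 4 libraries, and the 7-library mean of 67.0 lay within their range. IRF5 (XM_004382652.1), which acts downstream of Toll-like receptors, had values of 82.7, 52.6, 62.9 and 10.8 against a 7-library mean of 46.2. All but the shallowest library were above that mean, and the shallowest rested on 4 reads.

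Among the sensors and adaptors 3 of 6 had a row, and the RIG-I-like helicases differed in opposite directions. IFIH1 (XM_004375429.1), the sensor of long double-stranded RNA, had means of 235 over the 4 libraries and 605 over the 7, so that the 7-library mean was 2.58-fold higher (log2 ratio -1.37). DHX58 (XM_004390308.1), also called LGP2, lacks the signalling domains of the other members of this family and modulates their activity. TBK1 (XM_004381550.1), the kinase that phosphorylates IRF3 and IRF7, had means of 1113 and 1504 (log2 ratio -0.43).

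For DHX58 reads of all 11 libraries were recovered. The 4 libraries held 14, 15, 9 and 11 reads, or 8.98, 14.6, 14.5 and 29.6 normalized counts. The 7 libraries, again by falling size factor, held 8.67, 2.61, 5.03, 1.71, 7.23, 11.8 and 11.4 normalized counts. Thus 3 of the 4 libraries exceeded the highest of the 7, and the remaining one, at 8.98, exceeded 5 of the 7. The means were 16.9 ± 8.85 (SD, n = 4) and 6.92 ± 4.00 (SD, n = 7), a 2.45-fold higher mean in the 4 libraries. An exact two-sided permutation test over the 330 splits gave p = 0.0182 for DHX58, and p = 0.285 after Benjamini-Hochberg adjustment over the 4774 rows with reads of all 11 libraries. Among those rows 15.3% had an unadjusted p under 0.05 by the same exact test, and none passed 0.05 after adjustment (0 of 4774, smallest adjusted value 0.204). The smallest p that 4 against 7 libraries allow is 0.00606. Reads of all 11 libraries were recovered only for 7-library means of up to 10, a limit widened after the data had been seen. All 22 genes had an overall mean above 10, so only genes with the higher 4-library mean could be tested. The direction of the difference for DHX58 was thus fixed by this limit, and its p-value is no support for that direction. With 1 library left out in turn the unadjusted exact p for DHX58 lay between 0.0167 and 0.05, and it was 0.05, no longer under the threshold, without the library of size factor 1.03, 0.62 or 0.372. The log2 ratio of 1.29 ran from 0.88 to 1.5 with 1 of the 4 libraries dropped.

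The ISG15 and ubiquitin system had the lowest median ratio of the roles with more than 1 gene. ISG15 is a ubiquitin-like protein that interferon induces and that is attached to other proteins, and 4 of the 8 listed genes of this system had a row, with a median log2 ratio of -1.49. HERC6 (XM_004390146.1), an E3 ligase that attaches ISG15 in mice, had means of 640 over the 4 libraries and 2011 over the 7 (log2 ratio -1.65). HERC5 (XM_004390145.1), the main ISG15 ligase in humans, had means of 230 and 677 (log2 ratio -1.56). The HERC genes are paralogs that stand next to each other in the TriManLat1.0 gene table. Since the authors kept uniquely mapped reads, reads that map equally to both would not have been counted. DTX3L (XM_004373627.1), a ubiquitin ligase that works as a partner of PARP9, had values of 82.1, 30.2, 143 and 61.9 in the 4 libraries, from 128, 31, 89 and 23 reads. All of them lay below its 7-library mean of 213. Its 4-library mean was 79.4 ± 47.7 (SD, n = 4), with a log2 ratio of -1.42, and of -1.87 to -1.15 with 1 library left out in turn.

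USP18 (XM_004381226.1), the protease that removes ISG15 and dampens type I receptor signalling, did not follow the ligases. Its values in the 4 libraries were 35.3, 46.7, 32.2 and 21.5, on both sides of the 7-library mean of 30.7. USP18 is itself one of the genes that interferon induces most strongly.

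Antiviral effectors formed the largest role, with 9 of 22 listed genes in the table and a median log2 ratio of -0.19. SAMHD1 (XM_004370368.1), which degrades the nucleotides that retroviruses need, was past 2-fold in favour of the 7 libraries, with means of 599 over the 4 libraries and 1351 over the 7 (log2 ratio -1.17). IFIT5 (XM_004369916.1) had the highest ratio of the 22 genes, with means of 195 and 59.5, so that the 4-library mean was 3.28-fold higher. IFIT3 (XM_004391199.1) had means of 104 and 76.9 (log2 ratio 0.44). IFIT proteins bind viral RNA, and IFIT3 stabilises IFIT1 on it. No spread is known for these genes.

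ISG20 (XM_004370620.1), an exonuclease of single-stranded RNA, was also past 2-fold, with means of 16.6 ± 12.3 (SD, n = 4) and 7.24 ± 6.22 (SD, n = 7). The 4 libraries held 16.0, 21.4, 29.0 and 0 normalized counts. The 0 came from the shallowest library, where 0 reads allow up to 8.07 normalized counts. The 7 libraries held 3.47, 10.5, 17.6, 0, 4.52, 11.8 and 2.85, so the groups overlapped. The exact two-sided permutation test gave p = 0.139 for ISG20, and 0.473 after adjustment over the 4774 rows. As for DHX58, the limit on the 7-library mean fixed the direction of this difference. Without 1 library in turn the unadjusted exact p lay between 0.0333, without the shallowest library, and 0.367, and the log2 ratio ran from 0.79 to 1.61 with 1 of the 4 libraries dropped.

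**Figure D3:**
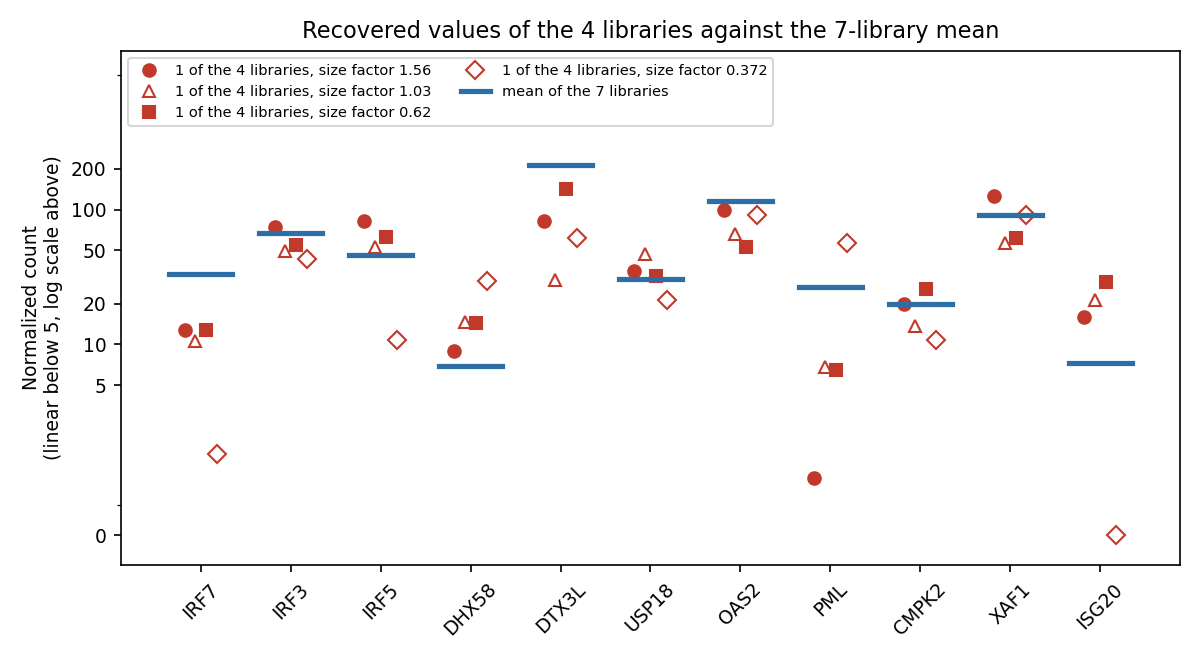
Recovered normalized counts of the 4 libraries (red symbols, 1 per library, named by size factor) for the 11 genes with a single read combination, with the 7-library mean as a blue bar; the axis is linear below 5 and logarithmic above. All 4 symbols lie under the bar for IRF7, DTX3L and OAS2, and all 4 lie over it for DHX58.

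OAS2 (XM_004379060.1), which senses double-stranded RNA, had values of 99.4, 66.2, 53.2 and 91.5 in the 4 libraries. Each lay under the 7-library mean of 115, which was 1.48-fold the 4-library mean of 77.6 ± 21.6 (SD, n = 4). XAF1 (XM_004376117.1), a pro-apoptotic interferon target, had values of 126, 56.5, 61.2 and 91.5 around a 7-library mean of 90.6. CMPK2 (XM_004373100.1), a nucleotide kinase encoded beside RSAD2, had values of 19.9, 13.6, 25.8 and 10.8, with a 7-library mean of 19.9. The 7-library mean thus lay inside the range of the 4 libraries for XAF1 and CMPK2. ADAR (XM_004388557.1), which edits adenosines in double-stranded RNA, had means of 262 and 358 (log2 ratio -0.45).

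PML (XM_004374737.1), the scaffold of nuclear bodies with antiviral activity, was decided by 1 library. Its values in the 4 libraries were 1.92, 6.81, 6.45 and 56.5, from 3, 7, 4 and 21 reads, and the 7-library mean was 26.5. The shallowest library was above that mean and the others far below it. The log2 ratio was -0.56 with all 4 libraries and -2.39 without the shallowest.

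Set against the spread of the 4 libraries, 3 of the 10 genes with recovered reads and a 4-library mean no higher than 80 had all 4 libraries below the 7-library mean (IRF7, DTX3L and OAS2), and 1 had all above (DHX58). Among all 9632 rows with such reads these shares were 17.3% and 10.1%, and among the 4559 of them with an overall mean of at least 10 they were 27.1% and 12.5%. Over the 11 genes with recovered reads, XAF1 included, the shallowest library gave the lowest of the 4 values in 6 genes (54.5%) and the highest in 2 (18.2%), DHX58 and PML. Over all 10144 rows with recovered reads it gave the lowest value in 20.1% and the highest in 34.4%. Without that library the count of genes with the remaining libraries all above the 7-library mean went from 1 to 4, since IRF5, ISG20 and USP18 joined DHX58, and that of genes all below went from 3 to 4 with PML.

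The interferon gamma gene IFNG had a wider gap between the groups than any of the 22 genes. Of 101 other genes of the pathway listed with earlier results of these data known, 48 had a row, 50 rows in all. IFNG was higher in the 4 libraries by the widest margin of those rows, with a log2 ratio of 5.36. Its 4 libraries held 38, 14, 9 and 74 reads, or 24.4, 13.6, 14.5 and 199 normalized counts. The 7 libraries held 8, 0, 0, 0, 1, 1 and 3 reads, with a median of 0.904 and a highest value of 4.62 normalized counts. Each of the 4 libraries therefore exceeded each of the 7, as in 2.83% of the 4774 rows. The exact two-sided permutation test gave p = 0.00606 for IFNG, the smallest this design allows, and 0.204 after adjustment over the 4774 rows, which does not pass. The mean of 62.9 ± 90.9 (SD, n = 4) rested largely on the shallowest library, without which the log2 ratio was 3.52.

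**Figure D4:**
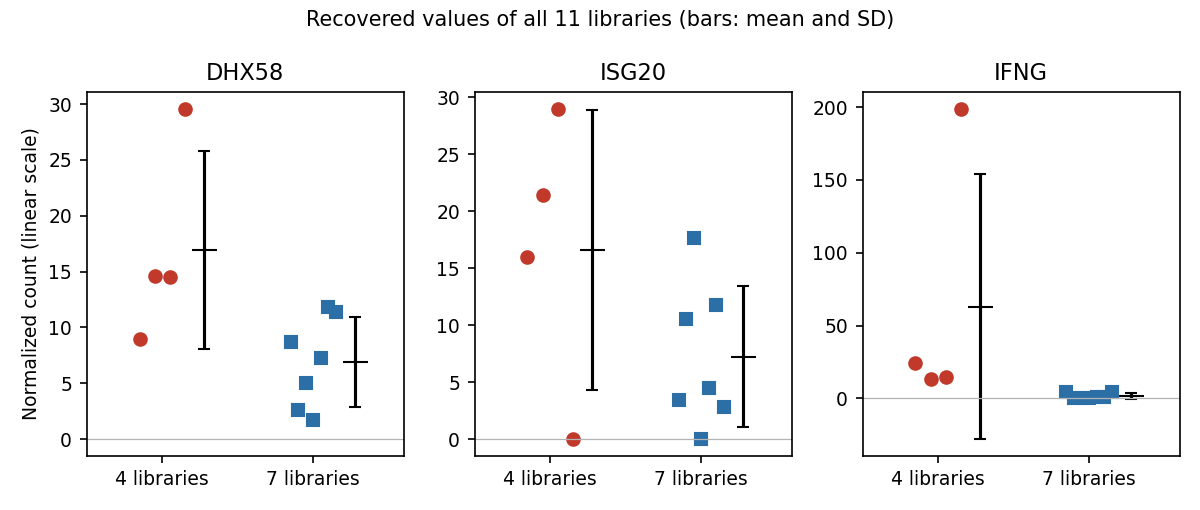
Recovered normalized counts (linear scale) of all 11 libraries for DHX58, ISG20 and IFNG, with the 4 libraries as red circles, the 7 libraries as blue squares, and black bars for mean and SD. The groups overlap for DHX58 and ISG20, while for IFNG the lowest of the 4 libraries is 13.6 and the highest of the 7 is 4.62.

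Over the other pathway genes, 13 of 50 rows (26.0%) had a 7-library mean at least 2-fold higher and 7 (14.0%) a 4-library mean at least 2-fold higher, with a median log2 ratio of -0.39. The first set held the endosomal RNA sensors TLR7 (127 over the 4 libraries, 469 over the 7) and TLR8 (536 and 2287), their adaptor MYD88 (31.0 and 75.1), and SAMD9L (2489 and 7375), an interferon-induced inhibitor of poxvirus growth. It also held CXCL10, a chemokine that interferon gamma induces, at 1.93 and 7.52. The second set held, beside IFNG, the cytokine signalling inhibitor SOCS1 (14.7 and 6.96) and GCH1 (563 and 145), an enzyme of tetrahydrobiopterin synthesis that interferon gamma induces. JAK1, the kinase shared by the interferon receptors, had nearly equal means of 6855 and 6313. For SOCS1 all 11 libraries were recovered and the exact two-sided permutation test gave p = 0.558 (0.850 adjusted over the 4774 rows). Without the shallowest library its log2 ratio turned from 1.07 to -0.70.

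Of the lists of blood cell markers, those of neutrophils and platelets differed most between the groups by median log2 ratio. All 9 neutrophil markers with a row had a 7-library mean at least 2-fold higher, with a median log2 ratio of -2.41. Whether these markers were lower or higher in red tide depends on which mean is that of red tide, which is not settled. Their summed means were 2248 over the 4 libraries and 12820 over the 7. For the 5 of them with recovered reads the sum ranged from 125 to 548 in the 4 libraries, against a sum of 7-library means of 2060, and none of these was at 0 in any of the 4 libraries. Platelet markers went the other way, with 3 of 4 at least 2-fold higher in the 4-library mean and summed means of 8859 and 2997. Monocyte markers had summed means of 2488 and 2820 and B cell markers of 499 and 565. T cell markers had 3 rows and summed means of 288 and 610, natural killer cell markers 1 row (6.95 and 5.41), plasmacytoid dendritic cell markers 3 rows (819 and 699) and erythroid markers 3 rows (186 and 488). The part of these cell types in the ratios of the interferon genes was not tested.

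**Figure D5:**
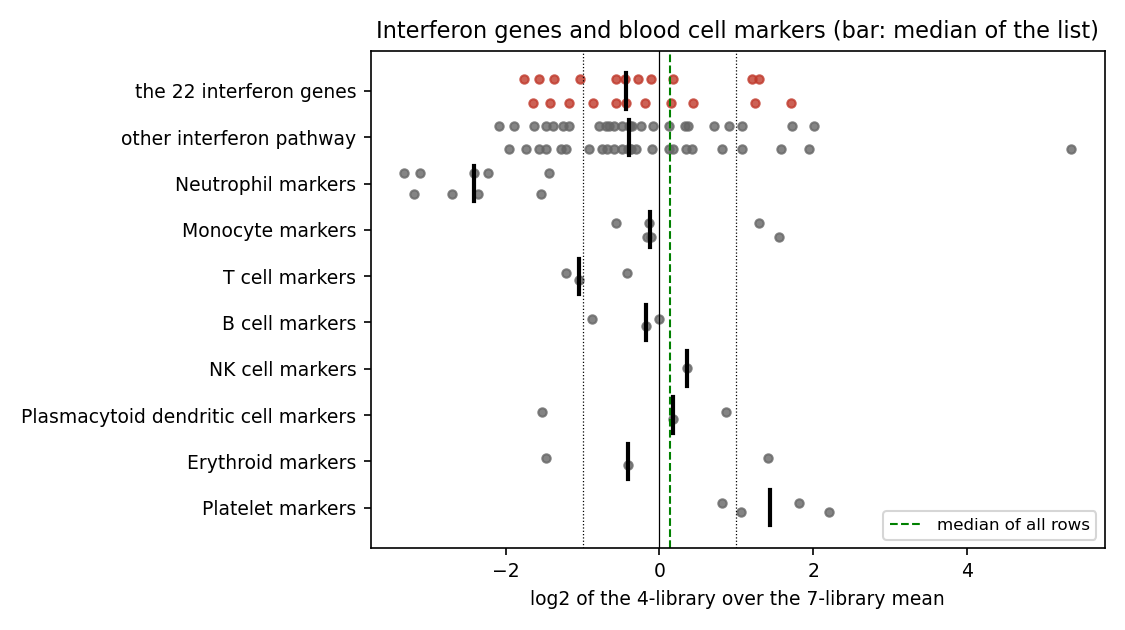
Log2 ratio (4-library mean divided by 7-library mean) for each row of the 22 genes (red), the other interferon pathway genes and 8 lists of blood cell markers (grey), with black bars for the median of each list, a dashed line for the median of all rows (0.14) and dotted lines at 2-fold. Neutrophil markers lie left of the 2-fold line in 9 of 9 rows, and the 22 interferon genes spread over both sides of 0 with a median of -0.44.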

How the data were processed

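Reads of 11 buffy coat libraries were filtered with Cutadapt, mapped to the TriManLat1.0 assembly with Bowtie2 (v. 2.2.3), cleared of duplicates, restricted to uniquely mapped reads and counted per gene sequence by the authors. For the counting program and the annotation release, the sources used here give no name. The signal columns of the deposited table are means of counts that the authors scaled by size factors, taken over all libraries and within each group. Its fold change, log2 fold change, p-value and adjusted p-value columns are the authors' own comparison and were not used. No value of a single library was given, so no count model could be fitted. Group identity rests on the weights of 4 and 7 and on the title of the table, which names red tide first. The directions given in the study imply the reverse, so it is not settled and directions are given by number of libraries.

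The value of 1 read in each library was found from the lowest means upward and refined by least squares. Combinations of whole reads were searched to within 6e-10 (means below 10) or 6e-09 (means from 10), for 4-library means of up to 80 and 7-library means of up to 6. Since no listed gene lay within both limits, they were widened to 100 and 10 after the data had been seen. A single combination was found for 10144 of 10159 and for 4790 of 5439 rows, and 0 rows had none. The wider 4-library limit favours rows with a higher 4-library mean among the 4774 rows with all 11 libraries. For the 22 genes, all with an overall mean above 10, the limits left only that direction to test. The search was first tested on simulated data. Recovered reads, divided by the size factors, were compared by an exact permutation of the difference of means (Python 3.11.15, numpy 2.4.6, scipy 1.17.1), with Benjamini-Hochberg adjustment. A count of 0 reads was read as allowing 3, for counting error only. The labels do not name the animal behind each library. A p-value gives how rarely other splits of these libraries yield a difference of means at least as extreme.

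The genes, roles, lists and tests were chosen with earlier results of these data known, and every listed gene with a row is reported. Of the 25 without a matched row, 18 have a symbol in the RefSeq table under other records. That table names no scaffold, so no positions are given. Alternatives concerned low means, 1 row per symbol, centring, a pseudocount of 1, fold thresholds of 1.5 and 3, a minimum of 10 reads, the log scale and leaving out libraries. Some items of the pathway are not reported here.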

Additional observations from a re-analysis of the deposited data

Results flagged for a closer look

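Single libraries far from the others of their group (Dixon's 95% criterion) were found in 5 of 33 groups of recovered values that were checked. In the 4-library group these were the shallowest library for PML at 56.5, for IFNG at 199 and for SOCS1 at 45.7 normalized counts, and for STAT3 the deepest library at 1.28, which rests on 2 reads. In the 7-library group it was 1 library for IFITM5 at 5.23 normalized counts, from 8 reads. The criterion gives about 1 in 20 by chance for independent, normally distributed values. Many values here were low counts, and several of the calls came from the same library. No excess over chance can therefore be read from the number of calls.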

How the results depend on the processing

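The numbers of genes higher or at least 2-fold higher in either mean held under centring on the median of all rows and a pseudocount of 1. The median log2 ratio lay between -0.58 and -0.44. A minimum overall mean of 10 and 1 row per symbol could change nothing, since all 22 genes already met both. At a fold threshold of 3, 2 genes remained past it in favour of the 7-library mean and 1 in favour of the 4-library mean, as a stricter threshold must give fewer. With 1 of the 4 libraries dropped at a time, between 3 and 4 genes had all remaining libraries below the 7-library mean and between 1 and 4 had all above. Without the 2 shallowest of the 4 libraries, an alternative chosen after the data had been seen, these counts were 5 and 4; fewer libraries make such a count easier to reach. In the exact permutation test 0 of 2 genes had an adjusted p under 0.05, also on the log2(normalized count + 1) scale and whichever of the 11 libraries was dropped. The unadjusted count was 1 of 2 with all libraries and between 0 and 1 with 1 dropped; without the shallowest library ISG20 passed (exact p = 0.0333) and DHX58 did not (exact p = 0.05). On the log scale DHX58 gave p = 0.0303 and ISG20 p = 0.497 in the same exact test. Of the 99 recomputed log2 ratios of single genes, 97 moved by less than the spread of their libraries or by less than 1.5-fold where that spread is unknown. The other 2 were those of PML, at -2.39 without the shallowest library and -2.60 without the 2 shallowest. Centring shifts every ratio by the same 0.14, less than any of these limits, so the centred ratios could not count as moved. A pseudocount of 1 also shifted each ratio by less than these limits, since all means were well above 1. Dropping 1 of the 4 libraries shifts their mean by less than the SD of those same libraries. The count of 97 was therefore nearly fixed in advance and is no evidence of stability. With 1 of the 4 libraries dropped, IRF7 and DTX3L remained past 2-fold, while ISG20 fell to 0.79 and DHX58 to 0.88. No library could be dropped for IRF1, IRF2, IFIH1, HERC5, HERC6, SAMHD1 and IFIT5. No paired analysis was possible because the columns carry no replicate numbers. Depth limits the weak genes: the 0 reads of ISG20 in the shallowest library cannot be told from a level of up to 8.07, and the spread of the 7 libraries is unknown above a mean of 10.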

Other observations

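IL15, a cytokine that sustains natural killer and memory T cells, had recovered reads in all 11 libraries. Its 4 libraries held 3.85, 5.84, 3.22 and 0 normalized counts, with a mean of 3.23 ± 2.42 (SD, n = 4). The lowest of the 7 libraries was 0.839 and their median was 8.13. The groups overlapped (exact two-sided permutation test, p = 0.164, 0.512 adjusted over the 4774 rows). CXCL11, a chemokine of the same interferon-induced family as CXCL10, had 8 reads in the 4 libraries together and 24 in the 7, and 5 of the 7 libraries held 0 reads (p = 0.758 in the exact test, 0.911 adjusted). The keratinocyte interferon IFNK had 21 reads in the 4 libraries and 23 in the 7 (p = 0.352 in the exact test, 0.684 adjusted).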
